A study of Mus musculus with 2 samples.

Results

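The genes examined were 10 genes that neutrophil precursors switch on late in their maturation, namely Ltf, Camp, Ngp, Lcn2, S100a8, S100a9, Mmp8, Mmp9, Cybb and Padi4. They were chosen by name as secondary and tertiary granule genes, and all 10 were found among the 23284 gene symbols of the deposited files. RNA-seq data of 1 WT and 1 STAP-1 KO library were available, both made from leukemic stem cells (LSCs) of mice with a chronic myeloid leukemia (CML)-like disease. Both groups of donor cells were LSK cells (lineage-negative, Sca-1+ and c-Kit+) of C57BL/6J background that had been infected with a retrovirus carrying human BCR-ABL and green fluorescent protein (GFP), and the STAP-1 KO donors also carried a targeted disruption of the STAP-1 locus. The infected cells were transplanted into lethally irradiated C57BL/6SJL recipients together with normal bone marrow cells, and GFP+ CD45.2+ LSK cells were sorted. The cells were taken on day 11 after the first transplantation, and the study used mice aged 8 to 14 weeks. How many mice were pooled for a library is not given in the sources used here. With 1 library per genotype no difference has a replicate check, so that no p-value is given, and the genotype cannot be told apart from variation among mice, sorts or preparations.

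Neutrophils fill their granules in sequence. Promyelocytes make the primary granules, with myeloperoxidase and serine proteases. Myelocytes and metamyelocytes then make the secondary granules, with lactoferrin and cathelicidin, and later precursors make the tertiary granules, with gelatinase. The question was whether the late genes follow the early genes, of which Mpo and Elane are examples, in LSCs without STAP-1. The granule name covers part of the group only, because S100a8 and S100a9 encode cytosolic proteins, Padi4 encodes a mainly nuclear enzyme, and Cybb encodes a membrane protein that macrophages also use. The sort removed cells that carry CD11b or Gr-1. Itgam, which encodes CD11b, had 1.82 FPKM in WT LSCs and 1.56 FPKM in STAP-1 KO LSCs. The neutrophil marker gene Ly6g was not found among the gene symbols, so that it has no value here.

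FPKM values are reads of a gene divided by its exon length and by the size of the library, so that levels of different genes can be compared per length. A gene was called higher or lower in the STAP-1 KO library when its FPKM values differed by 2-fold or more and neither was under 0.1 FPKM. Many of the low FPKM values (40.8% in WT and 45.1% in STAP-1 KO) fell on steps of whole reads, from which a depth of about 7480000 reads (WT) and 10490000 reads (STAP-1 KO) was estimated. Numbers of reads below are estimates from these depths, and the 95% intervals (exact conditional binomial, Clopper-Pearson) cover counting error only. The targeted gene Stap1 had 62.0 FPKM in WT LSCs and 0.309 FPKM in STAP-1 KO LSCs, which matches the labels. Over all genes, 12507 could be compared, of which 12.3% were called higher and 22.9% lower.

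The late genes did not rise together with the early granule genes. Ltf, Camp, Ngp, S100a9 and Mmp8 were called lower in the STAP-1 KO library, and Cybb was called higher. The remaining values were below the 2-fold cut-off for S100a8, Lcn2 and Padi4, and Mmp9 was under the 0.1 FPKM floor. Thus 5 of the 9 genes above the floor (55.6%) were lower, against 22.9% of all genes, and 1 of 9 (11.1%) was higher, which is close to the 12.3% of all genes. The median log2((STAP-1 KO + 0.1)/(WT + 0.1)) was -1.79 for the 9 late genes whose mean reached 1 FPKM, whereas it was -0.04 for all 10974 genes that reached it. The 10 late genes together had 422 FPKM in WT LSCs and 200.2 FPKM in STAP-1 KO LSCs.

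The background changed with the rule, and the late genes were compared with it under each. With libraries scaled by the median of ratios, the upper quartile or the total without the 100 highest genes, 5 of the 9 late genes remained lower, among 22.7%, 22.1% and 24.3% of all genes. Under these scalings 1, 2 and 0 late genes were higher, among 12.4%, 13.2% and 10.6% of all genes. After a correction for length and GC content, 6 late genes were lower and 2 higher, among 18.8% and 11.8%. Without a floor, Mmp9 joined the lower genes to give 6 of 10 (26.8% of all genes lower, 17.5% higher). A floor of 1 FPKM in both libraries left 4 lower genes of 8 (19.3% and 10.6%), since Mmp8 was then not counted, and the same floor in the higher library alone left 5 of 9 (23.8% and 12.3%). At a ratio of 1.5, S100a8 joined the 5 lower genes and Lcn2 and Padi4 joined Cybb (32.8% and 25.6%). At a ratio of 4, Ngp and Mmp8 were the only late genes called (8.56% and 2.4%).

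**Figure D1:**
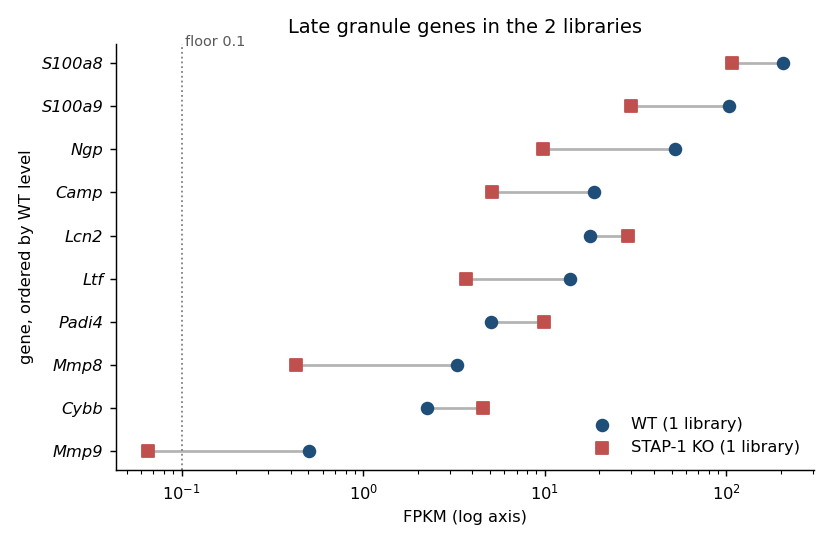
FPKM (log axis) of each late granule gene in the WT library (circles) and the STAP-1 KO library (squares), 1 library each, with the genes ordered by their WT level and the floor of 0.1 FPKM dotted. The STAP-1 KO value lies to the left for 7 genes and to the right for Lcn2, Padi4 and Cybb, and the Mmp9 value of the STAP-1 KO library lies below the floor.

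Among the secondary granule genes, Ltf encodes lactoferrin, which binds iron and so withholds it from bacteria. Ltf (chromosome 9 of GRCm38, 111019271 to 111042767, plus strand) had 13.7 FPKM in WT LSCs and 3.69 FPKM in STAP-1 KO LSCs, about 261 and 98.1 reads. Its level was 3.72-fold lower, with an interval from 2.94 to 4.75. Camp, the gene of the antimicrobial peptide cathelicidin, had 18.8 and 5.13 FPKM, 3.66-fold lower with an interval from 2.40 to 5.91. It lies on chromosome 9 (109847379 to 109849617, minus strand). Lactoferrin and cathelicidin transcripts thus kept almost the same proportion, with Ltf at 0.732 of the Camp level in WT LSCs and 0.720 in STAP-1 KO LSCs. The Camp values rest on about 77.8 and 29.4 reads, and this proportion has no interval. Ngp encodes neutrophilic granule protein, a relative of the cathelicidins, and was the most abundant of the secondary granule genes among the 10 in the WT library. It had 52.3 FPKM there, from about 399 reads, and 9.72 FPKM in STAP-1 KO LSCs, from about 103 reads. The fall was 5.38-fold (interval from 4.33 to 6.76). Ngp went from 2.79 to 1.89 times the Camp level, and Ltf from 0.262 to 0.380 of the Ngp level. Ngp (chromosome 9, 110419747 to 110423012, plus strand) lies between Camp and Ltf.

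Lcn2 went the other way from these genes. It encodes lipocalin 2, which captures bacterial siderophores and is also made by macrophages and epithelia during inflammation. Lcn2 (chromosome 2, 32384633 to 32388252, minus strand) had 17.8 FPKM in WT LSCs and 28.7 FPKM in STAP-1 KO LSCs. The level was 1.62-fold higher (interval from 1.33 to 1.96), which is below the cut-off. The ratio of Lcn2 to Ltf was 1.29 in WT LSCs and 7.78 in STAP-1 KO LSCs, and Lcn2 passed from the fifth to the third place among the 10 late genes.

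The matrix metalloproteinase genes of the group had low levels. Mmp8, the neutrophil collagenase of the secondary granules (chromosome 9, 7558456 to 7568485, plus strand), had 3.27 FPKM in WT LSCs and 0.426 FPKM in STAP-1 KO LSCs, about 54.3 and 9.88 reads. It was 7.68-fold lower, with a wide interval from 3.80 to 16.6. Mmp9, the gelatinase that defines the tertiary granules (chromosome 2, 164940780 to 164955850, plus strand), had 0.501 and 0.0652 FPKM, which are about 11.1 and 2.03 reads. The ratio of the FPKM values was again 7.68, and its interval reached from 1.68 to 71.4. Both differences thus rested on few reads in the STAP-1 KO library, and the size of the Mmp9 difference was not determined at this depth.

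S100a8 and S100a9 encode the subunits of calprotectin, a calcium- and zinc-binding complex that fills the cytosol of neutrophils and monocytes. They were the most abundant of the late genes in both libraries. S100a8 (chromosome 3, 90668978 to 90670035, plus strand) had 204 FPKM in WT LSCs and 108 FPKM in STAP-1 KO LSCs, a 1.89-fold lower level with an interval from 1.64 to 2.19, below the cut-off. S100a9 (chromosome 3, 90692632 to 90695721, minus strand) had 103.9 and 30.0 FPKM, a 3.46-fold fall with an interval from 2.72 to 4.41. The intervals of the partners did not overlap, so that the difference between them exceeded counting error, and S100a8 went from 1.97 to 3.60 times the S100a9 level. The longest transcripts of these genes have 498 and 519 bases, where the read counts of about 450 and 324 for S100a8 and 245 and 96.7 for S100a9 were small in relation to their FPKM values.

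Cybb and Padi4 act in the killing of microbes by mature neutrophils. Cybb encodes the catalytic subunit of the phagocyte NADPH oxidase, which is stored largely in the membranes of secondary granules. It is on the X chromosome (9435252 to 9487771, minus strand) and had 2.26 FPKM in WT LSCs and 4.56 FPKM in STAP-1 KO LSCs, about 76.9 and 217 reads. The ratio of 2.02 (interval from 1.55 to 2.65) lay just past the cut-off. Padi4 encodes the peptidylarginine deiminase that citrullinates histones when neutrophils release their chromatin. It is on chromosome 4 (140745865 to 140774236, minus strand) and had 5.05 and 9.86 FPKM, a ratio of 1.95 (interval from 1.57 to 2.48) just short of the cut-off. The cut-off separated Cybb from Padi4 although their intervals were almost the same.

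**Figure D2:**
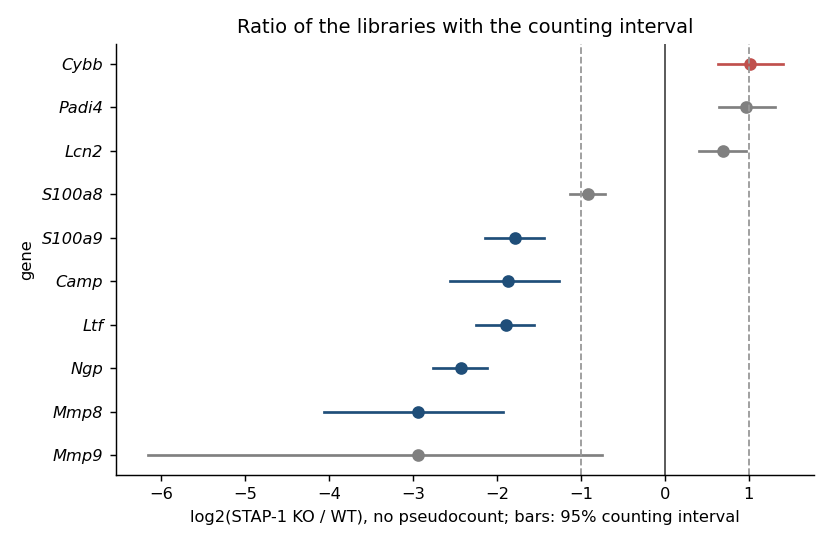
Log2 ratio of the STAP-1 KO library to the WT library for each late granule gene without a pseudocount (points), with the 95% counting interval (bars), dashed lines at the 2-fold cut-off, and colours for genes called lower (blue), higher (red) or neither (grey). The intervals of Lcn2, Padi4 and Cybb lie above 0 and those of the other 7 genes below 0, and the bar of Mmp9 is the longest.

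By their counting intervals the genes thus formed 3 sets. Ltf, Camp, Ngp, S100a9, Mmp8 and Mmp9 had overlapping intervals below an equal level, the interval of S100a8 lay around the cut-off and overlapped that of Mmp9 alone, and Lcn2, Cybb and Padi4 had overlapping intervals above an equal level. A lower level of a transcript in sorted cells can come from fewer cells of a type or from less RNA per cell, and these cannot be told apart here.

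Most of the listed early granule genes were higher in STAP-1 KO LSCs. Mpo (myeloperoxidase) had 248 FPKM in WT LSCs and 1973 FPKM in STAP-1 KO LSCs, Elane (neutrophil elastase) had 112 and 823 FPKM, Prtn3 (proteinase 3) 57.4 and 525 FPKM, and Ctsg (cathepsin G) 104 and 841 FPKM. Of the 9 genes listed for the primary granules 6 were called higher, and their log2 ratios lay between 2.57 and 3.47. The other 3 genes of the list had lower values in the STAP-1 KO library. Of these, Srgn, which encodes the proteoglycan serglycin, had 6691 and 1588 FPKM, and Ctsc, which encodes the protease that activates the granule proteases, had 1184 and 314 FPKM. Cst7, which encodes cystatin F, had 487 and 264 FPKM and was below the cut-off. The median log2 ratio was 2.87 over the 9 genes and 3.0 over the 6. The median of the late genes was 4.66 below that of the 9 primary granule genes on the log2 scale.

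The comparison of late with early genes can be made within a library, where the scaling of the libraries has no part. The summed level of Mpo, Elane, Prtn3 and Ctsg was 522 FPKM in WT LSCs and 4163 FPKM in STAP-1 KO LSCs. The 10 late genes amounted to 80.8% of this sum in WT LSCs and to 4.81% in STAP-1 KO LSCs. Ngp fell from 10.03% to 0.234% of the sum and Ltf from 2.63% to 0.0887%. The sum itself was 7.97-fold higher in the STAP-1 KO library, so that any gene that rose by less had a lower share. Relative to the sum of these 4 genes each late gene was lower, from 3.95-fold for Cybb to 61.2-fold for Mmp8 and Mmp9. For Lcn2, Cybb and Padi4 the rise of the sum made the share lower, since their own FPKM values were higher. The result depended on which early genes were summed. Over all 9 listed primary granule genes, of which Srgn alone made up 74.9% in WT LSCs and 23.2% in STAP-1 KO LSCs, the sum was 8933 and 6832 FPKM. Against that sum the 10 late genes amounted to 4.72% and 2.93%, which is 1.61-fold lower. Lcn2, Cybb and Padi4 were then 2.11-, 2.64- and 2.56-fold higher in relation to the early genes, and the other 7 late genes were lower, from 1.45-fold for S100a8 to 5.87-fold for Mmp8 and Mmp9.

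**Figure D3:**
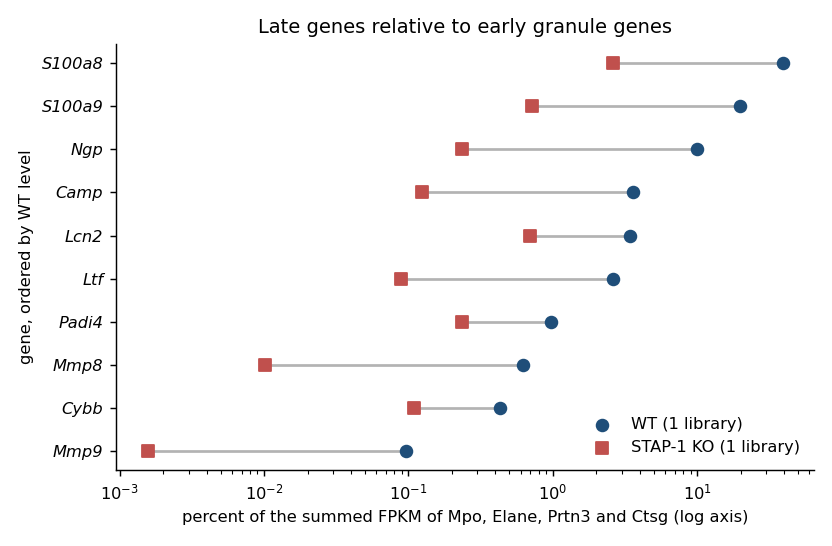
Level of each late granule gene as a percentage (log axis) of the summed FPKM of Mpo, Elane, Prtn3 and Ctsg in the same library, for the WT library (circles) and the STAP-1 KO library (squares). All 10 squares lie to the left of their circles, with the shortest distances for Lcn2, Padi4 and Cybb. The summed level was 7.97-fold higher in the STAP-1 KO library, which by itself moves each square to the left.

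Other listed late genes were mixed. Among 17 further genes of secondary granules and myelocytes, 15 were above the floor, of which 5 were called higher and 6 lower. Of all genes 12.3% were higher and 22.9% lower. Of the 6 lower genes, Orm1 (about 2.03 and 1.01 reads) and Itgb2l (about 8.62 and 4.31 reads) had counting intervals that include an equal level. The median log2 ratio was -0.13 over 13 genes of this list. When the mean had to reach 5 FPKM the median was 0.88, so that its sign rested on the weaker genes. Hp, which encodes haptoglobin, rose from 12.9 to 46.8 FPKM and Lyz2, the lysozyme gene, from 35.2 to 92.0 FPKM. The leukotriene B4 receptor gene Ltb4r1 fell from 93.1 to 15.7 FPKM. Chil3, the gene of a chitinase-like protein of neutrophils and macrophages, was named after its values were seen. It had 54.6 and 2.58 FPKM, and its reads may be shared with near-identical paralogs. Among 26 genes of tertiary granules and mature neutrophils, 18 were above the floor, with 4 higher and 6 lower, beside the same shares of all genes. The median was -0.45 over 17 genes. Of these 6 lower genes, Fpr1 (about 6.01 and 2.00 reads) had an interval that includes an equal level. Csf3r, the receptor for granulocyte colony-stimulating factor, rose from 1.51 to 13.3 FPKM. The integrin subunit gene Itgb2 fell from 175 to 34.2 FPKM, and the chemokine receptor gene Cxcr2 had 1.88 and 1.38 FPKM.

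**Figure D4:**
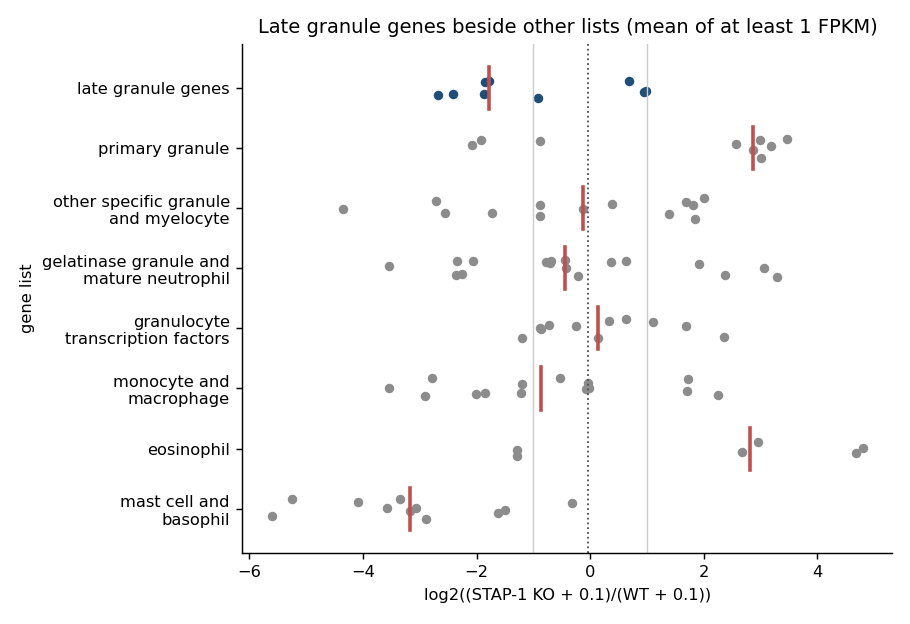
Log2((STAP-1 KO + 0.1)/(WT + 0.1)) of the genes in each list whose mean reached 1 FPKM (points), with the median of the list (red line), the median of all genes (dotted) and lines at a log2 ratio of -1 and 1. The late granule genes have a median of -1.79 and the primary granule genes a median of 2.87, with the other late lists between them.

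The partners and relatives of single late genes differed from list to list. Over genes whose mean reached 1 FPKM, the median log2 ratio was -0.14 for the NADPH oxidase genes and -3.97 for the deiminase (PADI) genes. It was -1.96 for the metalloproteinase and inhibitor genes and -0.87 for the S100 genes without S100a8 and S100a9. Cybb was the only one of 7 NADPH oxidase genes past the cut-off. Its membrane partner Cyba had 441 FPKM in WT LSCs and 276 FPKM in STAP-1 KO LSCs, and the cytosolic subunits Ncf1 (29.7 and 42.1 FPKM) and Ncf4 (36.9 and 37.3 FPKM) were closer to equal. The small GTPase gene Rac2 had 425 and 220 FPKM, 1.93-fold lower (interval from 1.87 to 2.00), just short of the cut-off. Padi4 was the one deiminase with a higher value. Padi2, which had been the most abundant of the family with 171 FPKM, fell to 10.8 FPKM, and Padi3 fell from 8.25 to 0.167 FPKM, about 5.43 reads. In the STAP-1 KO library Padi4 thus nearly equalled Padi2. Of the other S100 genes, 8 were above the floor, with 4 lower and 1 higher. S100a6 had 537 and 97.6 FPKM and S100a10 had 562 and 225 FPKM, and the gene that was higher was S100a5 (5.36 and 12.8 FPKM). Of 15 metalloproteinase and inhibitor genes 6 were above the floor, and Mmp8, Mmp2 (16.9 and 0.438 FPKM) and Mmp14 (4.97 and 1.20 FPKM) were called lower, whereas the inhibitor gene Timp2 (0.977 and 2.21 FPKM) was called higher. Mmp7, which encodes matrilysin, had 27.1 FPKM in WT LSCs and was listed at 0 in the STAP-1 KO library.

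Of the transcription factors of granulocytes, Cebpe, on which secondary granule genes depend in normal myelopoiesis, had 1.17 FPKM in WT LSCs and 3.99 FPKM in STAP-1 KO LSCs. It was called higher, on about 9.04 and 43.1 reads, and so moved in the direction opposite to Ltf, Camp and Ngp. Gfi1 had 8.19 and 12.7 FPKM, Spi1 (PU.1) had 84.5 and 92.7 FPKM, and Cebpb had 82.5 and 69.7 FPKM, all below the cut-off. The 12 genes of this list had 3 called higher, namely Cebpe, Cebpa (0.768 and 4.36 FPKM) and Cebpd (1.69 and 3.78 FPKM). Irf8, a factor of monocyte differentiation, was called lower (45.4 and 19.6 FPKM), and the median over the 11 genes whose mean reached 1 FPKM was 0.13.

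To set the sequences of the genes beside these values, the promoter windows of RefSeq (GRCm38.p6, 250 bases before to 50 bases after the start) were searched on both strands for a core of the C/EBP site, TTNNGNAA. Windows were found for 9 of the 10 genes and not for Mmp9. The core was present in 6 of these 9 windows and in 40.7% of 32851 windows of all genes. Ltf, Ngp, S100a8, S100a9, Mmp8 and Lcn2 had a match, and Camp, Cybb and Padi4 had none. The core of the PU.1 site, GAGGAA, was present in 5 of the 9 windows and in 28.3% of all windows, and no match of the cores overlapped. A match is a stretch of letters and not a measured binding site. The bases that lie before the first annotated transcript are shown for 4 genes that were called lower and have the C/EBP core, in capitals, and for Padi4, which has none. They are Ltf (chr9:111019042-111019270, plus strand), Ngp (chr9:110419558-110419746, plus strand), S100a9 (chr3:90695722-90695971, minus strand), Mmp8 (chr9:7558179-7558428, plus strand) and Padi4 (chr4:140774237-140774453, minus strand), each written 5′ to 3′ on the strand of the gene.
Ltf: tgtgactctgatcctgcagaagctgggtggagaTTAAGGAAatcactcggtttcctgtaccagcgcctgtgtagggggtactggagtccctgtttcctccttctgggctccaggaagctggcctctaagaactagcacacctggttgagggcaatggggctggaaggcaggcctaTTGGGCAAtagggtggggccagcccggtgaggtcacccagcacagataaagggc
Ngp: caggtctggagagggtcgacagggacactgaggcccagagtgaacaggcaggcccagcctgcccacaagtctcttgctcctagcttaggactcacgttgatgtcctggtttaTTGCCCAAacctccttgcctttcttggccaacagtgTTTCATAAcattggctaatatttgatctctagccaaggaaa
S100a9: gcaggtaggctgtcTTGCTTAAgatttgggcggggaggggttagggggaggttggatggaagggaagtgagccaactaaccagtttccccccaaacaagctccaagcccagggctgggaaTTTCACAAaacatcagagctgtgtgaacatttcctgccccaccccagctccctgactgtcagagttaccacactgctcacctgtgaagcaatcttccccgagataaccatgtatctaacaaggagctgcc
Mmp8: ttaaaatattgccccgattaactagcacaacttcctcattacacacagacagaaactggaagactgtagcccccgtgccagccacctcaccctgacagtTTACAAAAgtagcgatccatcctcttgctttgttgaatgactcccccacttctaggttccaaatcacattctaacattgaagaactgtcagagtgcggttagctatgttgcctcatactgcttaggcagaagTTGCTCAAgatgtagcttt
Padi4: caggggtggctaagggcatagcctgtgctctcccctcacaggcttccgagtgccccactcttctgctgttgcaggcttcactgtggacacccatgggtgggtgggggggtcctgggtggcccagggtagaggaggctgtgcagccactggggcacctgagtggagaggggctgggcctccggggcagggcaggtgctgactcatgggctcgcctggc
Ltf and Ngp hold closely similar cores (TTGGGCAA and TTGCCCAA, which are reverse complements of each other), at base -75 of Ltf and base -138 of Ngp counted from the RefSeq start. Ngp has a further match at base -11, which lies within an annotated transcript and is not shown.

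The ratios varied with the length of the transcripts, but no late gene changed sign when this was corrected for. Over all genes the median log2 ratio was 0.51 for the shortest of 10 length classes, which holds Camp, Ngp, S100a8 and S100a9, and -0.37 for the class of Cybb. With the correction for length and GC content the median of the late genes went from -1.79 to -1.98 and that of the primary granule genes from 2.87 to 2.62. S100a8 then had a log2 ratio of -1.62 and joined the lower genes, and Padi4 had 1.04 and joined Cybb.

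**Figure D5:**
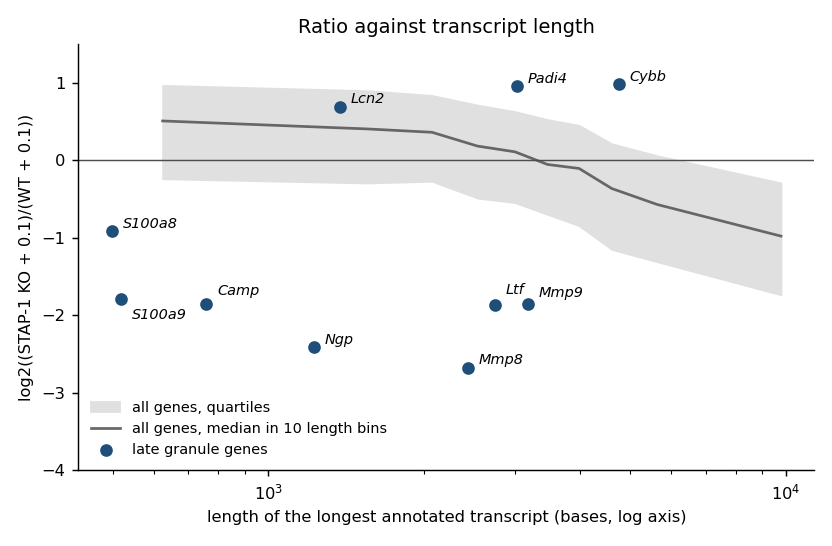
Log2((STAP-1 KO + 0.1)/(WT + 0.1)) of the late granule genes (points) against the length of the longest annotated transcript in bases (log axis), with the median (line) and quartiles (shading) of all genes whose mean reached 1 FPKM, in 10 length classes. The genes that were lower lie below the shading at short and medium lengths, and Padi4 and Cybb lie above it.

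Markers of other cells that a sorted LSK fraction may hold also differed between the libraries. The 11 mast cell and basophil markers made up 7.99% of all FPKM in WT LSCs and 0.882% in STAP-1 KO LSCs, with 10 of 11 called lower and none at 0. The 16 monocyte and macrophage markers, cells that express S100a8, S100a9 and Cybb as well, summed to 636 and 201 FPKM, with 3 called higher and 8 lower and none at 0. Among them Lgals3 (galectin 3) had 408 and 34.8 FPKM, and Ly6c2 had 20.5 and 98.0 FPKM. The 9 eosinophil markers summed to 39.0 and 91.5 FPKM. Of these, 6 were above the floor, with 3 called higher and 2 lower. Prg2 (2.12 and 61.7 FPKM) made up most of the STAP-1 KO sum, and Siglecf (27.9 and 11.4 FPKM) most of the WT sum. Ear1 was listed at 0 and Ear6 at under 1 estimated read in the WT library. Among genes of sorting antigens, Kit (468 and 30.1 FPKM) and Ly6a (Sca-1, 285 and 106 FPKM) were lower. Cd34, whose product was not used in the sort of these cells, had 281 and 194 FPKM. The part of these cells in the values of the late granule genes was not tested.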

How the data were processed

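Total RNA of the sorted cells was converted to cDNA with a SMART-Seq low-input kit, and the libraries were sequenced as single reads. Per the labels and the methods, the authors aligned reads with TopHat2 2.0.13 and Bowtie2 2.2.3 to the mm10 (GRCm38) genome, and deposited FPKM values made with Cufflinks 2.2.1 (Cuffnorm). The SAMtools version is 0.1.19 in the submitters' processing notes and differs in the methods. The annotation and the scaling of the libraries are not given in the sources used here. FPKM values are not counts, so no count test was run, and samples were grouped by the genotype in the labels.

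From the deposited FPKM values, ratios were computed in scipy 1.17.1, pandas 2.3.3 and numpy 2.4.6 (Python 3.11.15), and figures drawn in matplotlib 3.10.9. Log2 ratios used a pseudocount of 0.1 FPKM, which understates the change of low genes, and medians used genes whose mean reached 1 FPKM. Depth was estimated from values under 0.5 FPKM of coding genes with 1 transcript in GENCODE M21, with 204 bases (WT) and 212 bases (STAP-1 KO) taken off each transcript. Of 306 and 337 such values, 40.8% and 45.1% were whole reads to within 0.01, where chance gives 2%. Read estimates take the longest transcript. Symbols were matched to GENCODE as written (20911) or by older names (1915), which left 458 without a match. Of the 156 listed genes 5 were found through an older symbol and 2 were not found. The calls, the length correction and the depth estimate were tested on simulated data.

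The late genes and the other lists were chosen with earlier results of these data known. Named genes were all 10 late genes, 4 checks (Stap1, Kit, Ly6a and Cd34), the 5 most abundant genes of each other list and a few fixed names. Itgam, a target of the sort, was added to the checks. Others are named as such or as the remaining genes of a count. Some genes that this rule selects are not reported here. Alternatives changed the pseudocount, floor, fold, scaling, and length and GC correction. The planned comparison of protein sequences was not made.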

Additional observations from a re-analysis of the deposited data

How the results depend on the processing

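The median log2 ratio of the late genes stayed between -1.98 and -1.58 under the 9 alternatives tried for it. Of 60 ratios of single late genes under the alternatives 56 moved by less than the distance from the ratio without a pseudocount to the bound of its counting interval on that side, 4 moved by more (Ngp, S100a8 and S100a9 under the length and GC correction and Mmp8 at a pseudocount of 1 FPKM) and 0 changed sign. Cybb and Padi4 lay so close to the cut-off that the number of late genes called higher was 2 with upper-quartile scaling or the length and GC correction, 0 with scaling by the total without the 100 highest genes, 3 at a ratio of at least 1.5 and 0 at a ratio of at least 4. The number called lower was between 4 and 6 in the other settings and 2 (Ngp and Mmp8) at a ratio of at least 4. The median of the primary granule genes was 2.62 with the length and GC correction and 3.0 without Cst7, Ctsc and Srgn, a choice made after seeing the data. As a share of early genes, the late genes were 1.61-fold lower when all 9 primary granule genes were summed in place of 4, also a choice made after seeing the data, and the log2 ratio of this share changed sign to 1.08 for Lcn2, 1.40 for Cybb and 1.35 for Padi4. The median of the other secondary granule and myelocyte genes changed sign to 0.88 when the mean had to reach 5 FPKM and was -0.89 with every gene above 0. That of the tertiary granule and mature neutrophil genes was -0.64 with the correction and -0.74 with every gene above 0. The cause of these shifts was not tested. No paired analysis was possible because there is 1 library per genotype. Depth limits the low genes, such as Mmp9, Mmp8, Padi3 and Cebpe.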

Other observations

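Camp, Ngp and Ltf lie within 1.20 megabases of chromosome 9 (109847379 to 111042767, GRCm38), and the genes between them were looked at after the values were seen. Of 28 other genes of the files in this stretch 16 were above the floor, and 6 of these (37.5%) were called lower and 2 higher, against 22.9% and 12.3% of all genes. Nbeal2, whose product is needed for the alpha granules of platelets, had 13.7 FPKM in WT LSCs and 0.934 FPKM in STAP-1 KO LSCs, and the histone methyltransferase gene Setd2 had 8.32 and 2.50 FPKM. In the same stretch the phosphatase gene Cdc25a had 25.6 and 28.6 FPKM and Ccdc12 had 69.6 and 74.7 FPKM. The median log2 ratio of the 14 other genes whose mean reached 1 FPKM was -0.88, or -0.47 with length and GC content corrected for, at a median transcript length of 4425 bases.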
